A study of Mus musculus with 8 samples.

Results

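The genes described here are 10 members of the Bcl2 family of survival and death genes, chosen by symbol, among 33641 gene symbols measured in every library. They are the pro-survival genes Bcl2, Bcl2l1, Bcl2l2 and Mcl1, the effector genes Bax and Bak1, and the BH3-only genes Bcl2l11, Bbc3, Bid and Bad. All 10 symbols were found, and all passed the filter on low values with 16064 symbols in total. The filter asked for at least 1 TPM (transcript abundance per length, scaled to a fixed total) in at least 2 of the 8 libraries, and the lowest value of any member in any library was 1.90 TPM for Bbc3 in wild type. Messenger RNA was sequenced from haematopoietic stem cells sorted from the bone marrow of C57BL/6 mice, with 2 libraries for each of 4 genotypes. The genotypes were Scribble-/- (Scribble null), Taz-/-;Yap1-/- (Yap1 Taz null), Scribble-/-;Taz-/-;Yap1-/- (triple null) and wild type as the reference. All 4 groups, wild type included, carried Mx1-Cre and were given 6 intraperitoneal injections of polyI:C at 10 mg/kg, and cells were taken 1 week after induction. The Mx1 promoter responds to interferon and is active in many tissues beside blood, and polyI:C is a synthetic double-stranded RNA used to induce interferon. The labels give neither age nor sex, and do not name the animals behind the replicates of a genotype, so the spread that the p-values rest on may be technical.

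Bcl2 family proteins decide whether the outer mitochondrial membrane stays intact. The effectors BAX and BAK open pores in it and release cytochrome c, which starts the caspase cascade, while pro-survival proteins hold the effectors and their activators in check. BH3-only proteins carry stress signals to this balance by binding the pro-survival proteins or by activating the effectors. In mice, MCL1 is needed for the survival of haematopoietic stem cells. The targeted genes belong to the polarity and Hippo pathways: Scribble organises basolateral polarity in epithelia, while Yap1 and TAZ activate transcription together with DNA-binding TEAD factors.

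Since 2 of the 3 targeted genes encode TEAD co-activators, the 250 bases before the annotated starts of the members were searched for the TEAD motif core GGAATG on either strand (CATTCC on the other strand). RefSeq on GRCm38.p6 gave 16 such windows for the 10 members, and 2 of these held the motif, those of Mcl1 and of Bcl2l1. Over the whole table, 12.6% of 32851 windows and 14.4% of 27025 genes held it. The Mcl1 window is chr3:95658471-95658720 on the plus strand, with the motif starting 199 bases before the start. The Bcl2l1 window is chr2:152831729-152831978 on the minus strand, the window of 1 of its 3 annotated starts, with the motif 108 bases before it. Both are shown 5′ to 3′ along the gene, with the motif in capitals.
Mcl1: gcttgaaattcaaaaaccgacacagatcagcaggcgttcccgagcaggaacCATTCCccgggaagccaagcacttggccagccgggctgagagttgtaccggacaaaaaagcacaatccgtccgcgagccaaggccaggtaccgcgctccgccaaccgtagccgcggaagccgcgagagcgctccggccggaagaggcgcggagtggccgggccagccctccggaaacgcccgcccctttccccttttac
Bcl2l1: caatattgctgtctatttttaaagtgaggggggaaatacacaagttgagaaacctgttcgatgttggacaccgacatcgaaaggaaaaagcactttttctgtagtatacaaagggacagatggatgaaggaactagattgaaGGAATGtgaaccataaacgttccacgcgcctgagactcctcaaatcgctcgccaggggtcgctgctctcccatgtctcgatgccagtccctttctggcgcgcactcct
A match of these 6 letters is a description of the sequence and not evidence that a factor binds there. In the Scribble null and Yap1 Taz null libraries Mcl1 stood above wild type and Bcl2l1 below it, as the levels of each show. In triple null, Mcl1 was above wild type and Bcl2l1 overlapped it. None of these differences had an adjusted p under 0.05, and a link to the motif was not tested.

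Each library was given as TPM over the same symbols, with 14024 to 14970 symbols at 1 TPM or more. How deeply each library was sequenced is unknown, because TPM does not keep it. The correlation of log2 values across genes was 0.953 to 0.965 between replicates, and Scribble null replicate 2 correlated more with a library of another genotype (0.958) than with its own replicate (0.953). All 10 stem cell markers reached 1 TPM, with summed levels of 2052 and 2284 TPM in Scribble null, 2039 and 2278 TPM in Yap1 Taz null, 2382 and 2456 TPM in triple null, and 1958 and 1997 TPM in wild type libraries. Of the 3 targeted genes, Scrib in Scribble null lay below both wild-type libraries, and no other targeted gene did so in both libraries of a genotype whose label names it. In the limma fit that Scrib difference was −0.30 on the log2(TPM + 1) scale (adjusted p = 0.669). Of all genes tested, 15.7% lay below wild type without overlap in Scribble null. In Scribble null and triple null libraries Scrib was 6.26 and 7.63 TPM and 14.5 and 7.54 TPM, against 8.19 and 9.29 TPM in wild type. Where the labels name it as lost, Yap1 was 2.13 and 6.63 TPM (Yap1 Taz null) and 2.25 and 2.37 TPM (triple null), against 2.00 and 2.15 TPM in wild type. Wwtr1, the gene of TAZ, was 1.095 and 1.15 TPM in Yap1 Taz null and 1.92 and 0.775 TPM in triple null, against 0.730 and 1.19 TPM in wild type. Since deletion of part of a gene can leave its total level in place, this is no check of the genotypes, and every direction here is between libraries as labelled. The Y-linked genes were low in both Yap1 Taz null libraries, with Ddx3y at 2.05 and 2.48 TPM there and between 18.1 and 36.9 TPM in the 6 others, so the sex of the animals and the genotype cannot be told apart in comparisons with that group.

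Mcl1, whose protein is a short-lived inhibitor of BAK, was the most abundant member in every library. It lies at 3:95658788-95663176 on the plus strand of mm10. Its level was 194.5 and 234.5 TPM in Scribble null, 186.2 and 196.2 TPM in Yap1 Taz null, 164.2 and 162.8 TPM in triple null, and 126.0 and 144.1 TPM in wild type libraries. Every null library lay above both wild-type libraries, and no null genotype overlapped wild type. Over all genes tested, the libraries of a single null genotype lay above wild type without overlap for 30.9% to 33.2%, and below it for 14.2% to 15.7%. The share of genes with every null library apart from the same wild-type libraries was not counted. The mean was 214.5 ± 28.3 TPM in Scribble null, 191.2 ± 7.04 TPM in Yap1 Taz null, 163.5 ± 0.960 TPM in triple null and 135.0 ± 12.8 TPM in wild type (SD, n = 2 each). Averaged over the 8 libraries it stood at 176.1 TPM, above 95.9% of the genes tested. In bulk libraries, fewer cells of a type and less RNA per cell cannot be told apart.

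Bcl2, the founding pro-survival gene of the family, lies at 1:106538178-106714274 on the minus strand. Its level was 50.5 and 38.7 TPM in Scribble null, 57.4 and 58.7 TPM in Yap1 Taz null, 46.8 and 52.5 TPM in triple null, and 45.2 and 51.0 TPM in wild type. Only the Yap1 Taz null libraries lay apart from wild type, above it, and the other null genotypes overlapped it. Bcl2l2, which encodes BCL-W and lies at 14:54883377-54888234 on the plus strand, was 13.8 and 12.7 TPM in Scribble null, 17.7 and 16.1 TPM in Yap1 Taz null, 8.99 and 12.7 TPM in triple null, and 7.16 and 8.59 TPM in wild type. As with Mcl1, every null library lay above both wild-type libraries, although triple null replicate 1 did so by less than the gap between the wild-type libraries. Bcl2l1, which encodes BCL-XL, lies at 2:152780668-152831728 on the minus strand. It was 6.47 and 8.58 TPM in Scribble null, 8.26 and 6.19 TPM in Yap1 Taz null, 5.92 and 9.31 TPM in triple null, and 12.0 and 8.65 TPM in wild type. Its Scribble null and Yap1 Taz null libraries lay below both wild-type libraries, while the triple null pair overlapped them. These values are summed over a gene's transcripts, so the long and short splice forms of Bcl2l1 and Mcl1 are not separated.

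Of the effectors, Bak1 was the more abundant in every library. Bak1, at 17:27019810-27029009 on the minus strand, was 44.8 and 66.7 TPM in Scribble null, 83.9 and 90.3 TPM in Yap1 Taz null, 102.1 and 96.7 TPM in triple null, and 99.1 and 77.5 TPM in wild type. The Scribble null libraries were the lowest, below all the others, and wild type overlapped both Yap1 Taz null and triple null. Bax, at 7:45461697-45466898 on the minus strand, was 23.0 and 30.8 TPM in Scribble null, 35.1 and 34.0 TPM in Yap1 Taz null, 32.6 and 27.8 TPM in triple null, and 36.2 and 36.0 TPM in wild type. All null libraries lay below both wild-type libraries, and the Yap1 Taz null pair came closest to them. Bak1 shares 263 bases of exon, 11% of its transcript, with the antisense gene Ggnbp1 (23.8 to 43.3 TPM), and whether the counting used strand is not given in the sources used here, so the Bak1 level is uncertain to that extent.

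Of the BH3-only genes, Bad was the most abundant on average and Bbc3 the least. Bbc3, a p53 target that encodes PUMA and lies at 7:16308393-16318205 on the plus strand, was 5.58 and 4.24 TPM in Scribble null, 4.11 and 4.48 TPM in Yap1 Taz null, 2.08 and 1.96 TPM in triple null, and 1.90 and 2.94 TPM in wild type. The Scribble null and Yap1 Taz null libraries lay above both wild-type libraries, and the triple null pair lay within the wild-type range. Bcl2l11, which encodes BIM and lies at 2:128126038-128162547 on the plus strand, was 15.7 and 15.7 TPM in Scribble null, 15.8 and 12.3 TPM in Yap1 Taz null, 30.6 and 14.0 TPM in triple null, and 21.8 and 14.2 TPM in wild type. No null genotype separated from wild type. Bid, the gene of a protein that caspase-8 cleaves to link death receptors to mitochondria, lies at 6:120891930-120916853 on the minus strand. It was 11.1 and 12.9 TPM in Scribble null, 12.7 and 19.7 TPM in Yap1 Taz null, 28.9 and 11.6 TPM in triple null, and 16.8 and 16.4 TPM in wild type. The Scribble null libraries were below both wild-type libraries, and the triple null pair lay on both sides of them. Bad, whose protein binds BCL2, BCL-XL and BCL-W and is held inactive by phosphorylation, lies at 19:6941861-6951899 on the plus strand. It was 39.4 and 30.5 TPM in Scribble null, 31.2 and 20.1 TPM in Yap1 Taz null, 38.4 and 29.5 TPM in triple null, and 20.0 and 38.9 TPM in wild type. Its wild-type libraries nearly spanned the values of all other libraries.

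**Figure D1:**
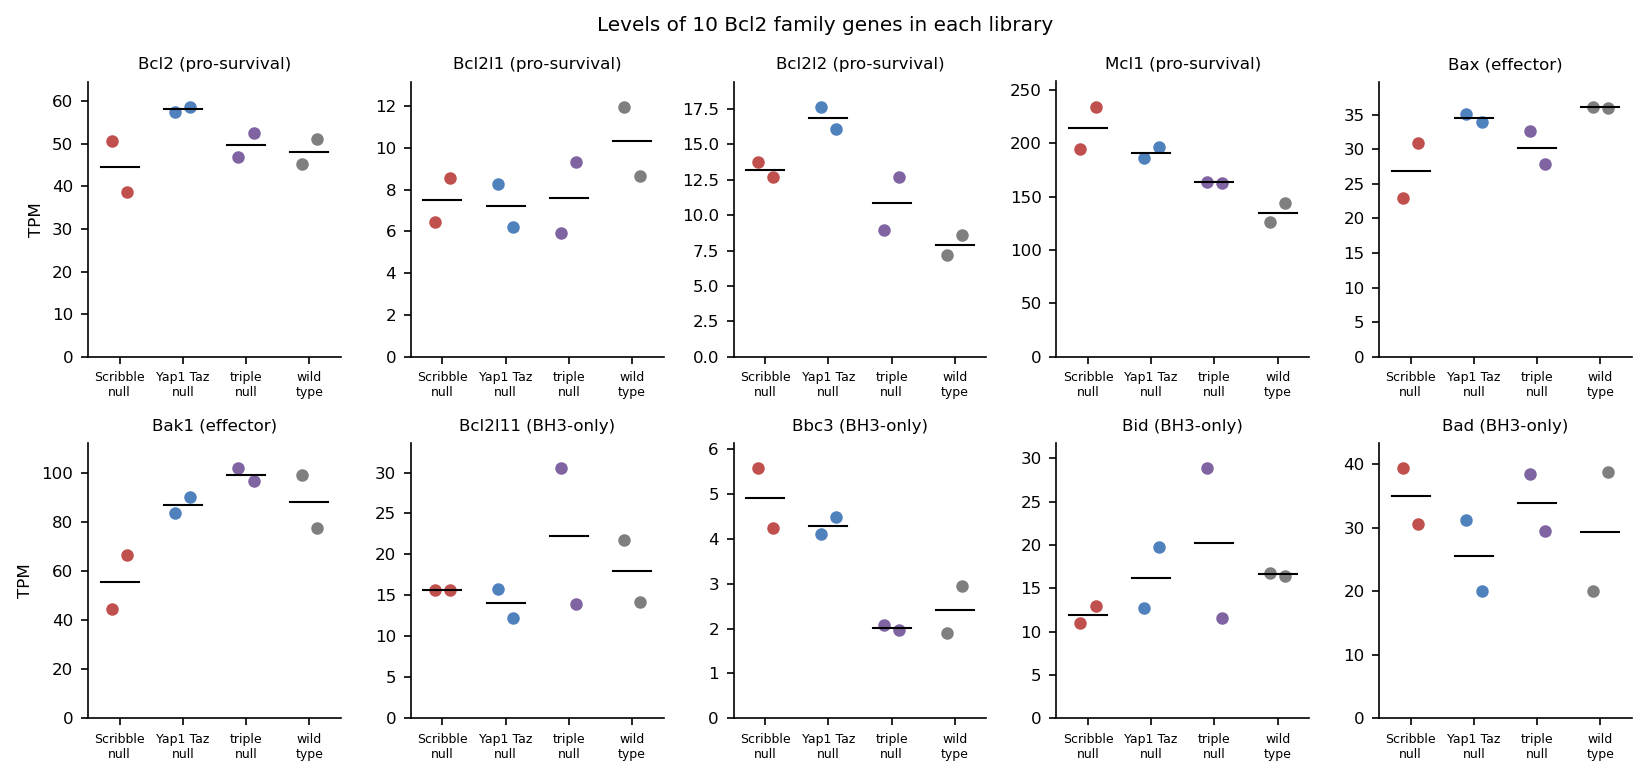
Level of each of the 10 genes in TPM (vertical axes, each from 0) in the 2 libraries of each genotype (points, with the mean as a line), with replicate 1 left of replicate 2. Mcl1 is above wild type in every null library, Bak1 is lowest in the Scribble null pair at 44.8 and 66.7 TPM, and the triple null replicates of Bid and Bcl2l11 lie far apart.

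The spread between replicates set how much could be read from these levels. The largest gap between replicates was 2.49-fold for Bid and 2.19-fold for Bcl2l11, both in triple null with replicate 1 higher, and 1.95-fold for Bad in wild type. For Mcl1 and Bcl2 the largest gap was 1.21-fold and 1.31-fold, both in Scribble null. Between genotype means, the highest over the lowest was 2.43-fold for Bbc3, 2.14-fold for Bcl2l2, 1.78-fold for Bak1 and 1.59-fold for Mcl1, and 1.30-fold for Bcl2. Ordered by their means, the genotypes ran Scribble null, Yap1 Taz null, triple null, wild type for Mcl1, and Yap1 Taz null, Scribble null, triple null, wild type for Bcl2l2. Bbc3 ran Scribble null, Yap1 Taz null, wild type, triple null, and Bak1 ran triple null, wild type, Yap1 Taz null, Scribble null. No neighbours in the order of any of the 10 members passed the test of their difference, and the smallest adjusted p among neighbours was 0.326, for Bak1 in Scribble null and Yap1 Taz null. Bid shares 629 bases of exon (26% of its transcript) with the antisense gene Bcl2l13, which was 9.16 to 14.9 TPM. The shorter overlaps of Bax and Bcl2l2 were with gene models at 0.814 TPM or less, and Bcl2 shares 498 bases with the antisense gene D630008O14Rik, which was not analysed here. Mcl1 had no overlapping gene in the annotation, but 245 bases of it were 91.8% identical to the gene model Gm20432, at 1.42 TPM or less.

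The comparison of Scribble null with wild type asked what loss of the polarity scaffold does to these genes. The largest separations from wild type relative to their error were in Mcl1, with 214.5 TPM against 135.0 TPM, and Bak1, with 55.7 ± 15.5 TPM in Scribble null against 88.3 ± 15.3 TPM in wild type (SD, n = 2 each). Neither passed the test, and no member did: 0 of 10 had an adjusted p under 0.05, where 1.3% of all genes tested did. On the log2(TPM + 1) scale, which understates differences of low genes, Mcl1 differed by 0.66 ± 0.137 (SE), higher in Scribble null, with an adjusted p of 0.0703. The Bak1 difference was −0.67 ± 0.210 (adjusted p = 0.161), that of Bcl2l2 was 0.68 ± 0.253 (adjusted p = 0.214) and that of Bbc3 was 0.80 ± 0.316 (adjusted p = 0.238). These 4 members were those with an unadjusted p under 0.05, a limit that 18.2% of all genes passed. The libraries did not overlap for 7 of the 10. Mcl1, Bcl2l2 and Bbc3 were higher in Scribble null, 3 of 10 beside 33.2% of all genes, and Bcl2l1, Bax, Bak1 and Bid were lower, 4 of 10 beside 15.7% of all genes. Bcl2l1 was parted only by 8.58 TPM in Scribble null against 8.65 TPM in wild type. The 95% intervals of the 10 differences reached from −1.37, for Bid, to 1.52, for Bbc3.

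Levels of some markers of other cell types moved with the genotypes. The 7 dendritic cell and macrophage markers summed to 230 and 241 TPM in Scribble null, 348 and 433 TPM in Yap1 Taz null, 602 and 603 TPM in triple null, and 2083 and 2284 TPM in wild type. The MHC class II genes Cd74 and H2-Aa made up nearly all of this sum, at 109.5 and 116.0 TPM on average in Scribble null and 721.1 and 1454.2 TPM in wild type. Flt3, the other marker to reach 1 TPM, was 9.91 ± 3.42 TPM in Scribble null and 7.22 ± 0.993 TPM in wild type, and Itgax, Adgre1, C1qa and C1qb were under 1 TPM in every library. Megakaryocyte markers, 5 of 5 reaching 1 TPM, summed to 329 and 333 TPM in Scribble null, 516 and 521 TPM in Yap1 Taz null, 381 and 427 TPM in triple null, and 1084 and 1210 TPM in wild type. Most of that gap lay in Pf4, at 96.9 ± 2.795 TPM in Scribble null, 216.6 ± 8.04 TPM in Yap1 Taz null, 178.6 ± 61.6 TPM in triple null and 886.7 ± 100.2 TPM in wild type. Itga2b was 128.9 ± 5.65 TPM in Scribble null, 149.1 ± 9.91 TPM in Yap1 Taz null, 102.0 ± 2.39 TPM in triple null and 130.6 ± 4.86 TPM in wild type, so the markers of this list did not share 1 pattern. The T and NK cell list, 3 of 5 reaching 1 TPM with Cd3e and Cd3g below it, summed to 95.5 and 121.6 TPM in Scribble null, 84.3 and 94.9 TPM in Yap1 Taz null, 119.6 and 130.5 TPM in triple null, and 154.3 and 171.9 TPM in wild type. The granulocyte and monocyte list, 6 of 9 reaching 1 TPM with S100a8, Csf1r and Ngp below it, summed to 472.6 and 666.6 TPM, 351.5 and 376.0 TPM, and 437.5 and 508.4 TPM in the same null genotypes, and to 330.8 and 398.1 TPM in wild type. Its Prtn3, in the order of the replicates, was 425.1 and 262.3 TPM in Scribble null and 117.6 and 140.5 TPM in wild type. The marker sums are instead given with the lower library first, so the pairs do not match in order. Endothelial and stromal markers, 3 of 5 reaching 1 TPM with Cdh5 and Cxcl12 below it, summed to 51.0 and 56.7 TPM in Scribble null, 41.4 and 51.2 TPM in Yap1 Taz null, 53.2 and 59.5 TPM in triple null, and 33.0 and 39.0 TPM in wild type. Scribble null did not overlap wild type in any of these 5 sums. It did overlap wild type in the B cell sum, at 15.6 and 15.7 TPM in Scribble null and 13.4 and 18.6 TPM in wild type. The stem cell sum did not overlap either, at 2052 and 2284 TPM in Scribble null and 1958 and 1997 TPM in wild type. Of single genes tested, 33.2% lay above wild type without overlap in Scribble null, and 15.7% below it. The part of these markers in the differences of the Bcl2 family genes was not tested.

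Loss of Yap1 and Taz was compared with wild type in the same model. Bcl2l2 stood apart most, at 16.9 ± 1.12 TPM in Yap1 Taz null and 7.87 ± 1.01 TPM in wild type (SD, n = 2 each), a log2 difference of 1.01 ± 0.253 (adjusted p = 0.146). Mcl1 differed by 0.50 ± 0.137 (adjusted p = 0.174) and Bbc3 by 0.65 ± 0.316 (adjusted p = 0.396), both higher in Yap1 Taz null. The effectors were close to wild type, with Bak1 at a difference of −0.01 (95% interval −0.49 to 0.47) and Bax at −0.06 (−0.51 to 0.39). Again 0 of 10 members passed, beside 0.99% of all genes. An unadjusted p under 0.05 was found for Bcl2l2 and Mcl1, beside 14.3% of all genes. The libraries did not overlap for 6 members, with Bcl2, Bcl2l2, Mcl1 and Bbc3 higher in Yap1 Taz null, beside 32% of all genes, and Bcl2l1 and Bax lower, beside 14.5%.

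The median size of the 10 differences from wild type was 0.236 in triple null, 0.434 in Scribble null and 0.296 in Yap1 Taz null, beside 0.269, 0.338 and 0.303 over all genes. In triple null Mcl1 was 163.5 TPM against 135.0 TPM in wild type, a log2 difference of 0.28 ± 0.137 (adjusted p = 0.514), and Bcl2l2 was 10.8 ± 2.60 TPM against 7.87 ± 1.01 TPM, a difference of 0.40 ± 0.253 (adjusted p = 0.600). No member passed the adjusted test, beside 0.579% of all genes, and none had an unadjusted p under 0.05, beside 10.9%. Libraries did not overlap for Bcl2l2 and Mcl1, higher in triple null beside 30.9% of all genes, and for Bax, lower beside 14.2%.

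The median difference over all genes tested was itself above 0 in these comparisons, at 0.145 in Scribble null, 0.143 in Yap1 Taz null and 0.115 in triple null, beside a median over the 10 members of −0.138, −0.0355 and 0.16. Scaling each library by the median ratio over genes brought the medians of all genes to −0.00252, −0.00891 and −0.00649. On that scale Mcl1 differed from wild type by 0.49 in Scribble null, 0.33 in Yap1 Taz null and 0.14 in triple null, Bcl2l2 by 0.53, 0.85 and 0.27, and Bak1 by −0.84, −0.18 and 0.04, with no member passing (smallest adjusted p 0.0991, for Bak1 in Scribble null). Bcl2 was the member whose sign turned, at 0.05 in triple null as deposited and −0.09 after scaling. The scaling also moved the balance of calls over all genes. In Scribble null 95 genes were called higher and 114 lower, and 60 and 218 after scaling. Yap1 Taz null had 76 and 83, and 36 and 96 after scaling, and triple null had 36 and 57, and 25 and 67 after scaling.

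**Figure D2:**
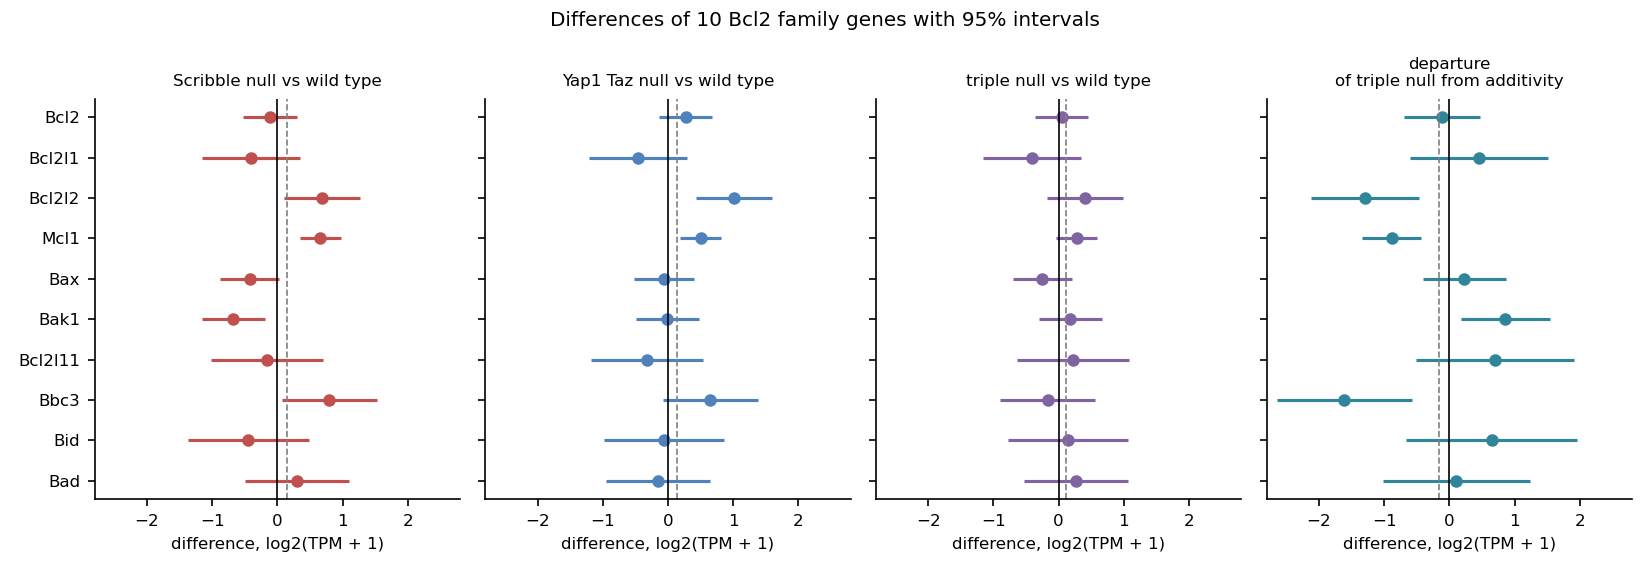
Difference of each of the 10 genes on the log2(TPM + 1) scale (points) with its 95% interval (bars) for each null genotype against wild type and for the departure of triple null from additivity, with the median over all genes as a dashed line. Mcl1 is at 0.66, 0.50 and 0.28 in the 3 comparisons with wild type, and in the departure Bcl2l2, Mcl1 and Bbc3 lie below 0 and Bak1 above it, none passing the adjusted test.

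Comparisons among the null genotypes asked whether removing Yap1 and Taz altered the levels seen with Scribble loss. Bak1 was 99.4 ± 3.82 TPM in triple null and 55.7 ± 15.5 TPM in Scribble null, a log2 difference of 0.85 ± 0.210 (adjusted p = 0.278). Bbc3 was 2.02 ± 0.0828 TPM in triple null and 4.91 ± 0.948 TPM in Scribble null, a difference of −0.96 ± 0.316 (adjusted p = 0.407), and Mcl1 differed by −0.38 ± 0.137 (adjusted p = 0.435). The libraries did not overlap for Bak1, higher in triple null beside 19% of all genes, and for Bbc3, Mcl1 and Bcl2l2, lower beside 21.1%, with Bcl2l2 parted only by 12.66 TPM against 12.67 TPM. None of the 10 passed, beside 0.212% of all genes, and an unadjusted p under 0.05 was found for Bak1, Bbc3 and Mcl1, beside 9.15%. Against Yap1 Taz null, triple null differed by −0.81 ± 0.316 for Bbc3 (adjusted p = 0.537) and −0.61 ± 0.253 for Bcl2l2 (adjusted p = 0.570), the 2 members with an unadjusted p under 0.05, beside 8.41% of all genes. No member passed there either, beside 0.181%, and libraries did not overlap for Bak1, higher in triple null beside 18.7% of all genes, and for Bcl2, Bcl2l2, Mcl1, Bax and Bbc3, lower beside 21.3%. Scribble null against Yap1 Taz null gave a difference of −0.66 ± 0.210 for Bak1 (adjusted p = 0.326), the only member with an unadjusted p under 0.05, beside 10.4%, with 0 of 10 passing beside 0.286% of all genes. Bcl2, Bcl2l2, Bax and Bak1 did not overlap there, all lower in Scribble null, beside 19.8% of all genes, and no member was higher, beside 19%.

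The departure from additivity is the triple null difference from wild type minus the sum of the Scribble null and Yap1 Taz null differences, and tests whether the losses combine by simple addition on the log2 scale. It was −0.88 ± 0.194 for Mcl1 (adjusted p = 0.113), −1.30 ± 0.357 for Bcl2l2 (adjusted p = 0.172) and −1.61 ± 0.447 for Bbc3 (adjusted p = 0.173). For these genes the triple null stood lower than the sum of the other differences would place it. For Bak1 the departure was 0.86 ± 0.297 (adjusted p = 0.247). None of the 10 members passed, beside 0.635% of all genes, and these 4 had an unadjusted p under 0.05, beside 14.5%. The wild-type libraries enter all 3 differences, so the departure shares them with the comparisons above. It also includes the Yap1 Taz null libraries, where the Y-linked genes were low, so sex and genotype cannot be told apart in it. The median departure was −0.151 over all genes and 0.171 over the members, and after median-ratio scaling the median over all genes was 0.0296, with Mcl1 at −0.68, Bcl2l2 at −1.11, Bbc3 at −1.45 and Bak1 at 1.07. Bcl2 again turned its sign, at −0.11 as deposited and 0.10 after scaling. Over all genes 60 departures were called above 0 and 42 below, and 67 and 24 after scaling. Of triple null against Yap1 Taz null calls, 11 were higher and 18 lower, and 12 and 12 after scaling.

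Ratios within a library do not depend on how the library was scaled, so the roles were also summed. The pro-survival sum over the effector sum was 3.92 and 3.02 in Scribble null, 2.26 and 2.23 in Yap1 Taz null, 1.68 and 1.91 in triple null, and 1.41 and 1.87 in wild type libraries. Both Scribble null libraries lay above all the others, and the triple null pair overlapped wild type. The pro-survival sum was 279.8 ± 20.6 TPM in Scribble null, 273.3 ± 5.39 TPM in Yap1 Taz null, 231.6 ± 8.04 TPM in triple null and 201.3 ± 15.6 TPM in wild type, and the effector sum was 82.6 ± 21.1, 121.6 ± 3.65, 129.6 ± 7.24 and 124.4 ± 15.4 TPM in the same order (SD, n = 2 each). Set over all 6 pro-death members, the pro-survival sum had a ratio of 1.90 and 1.83 in Scribble null, 1.47 and 1.53 in Yap1 Taz null, 0.963 and 1.31 in triple null, and 0.972 and 1.14 in wild type. These ratios are descriptions with no test.

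Mcl1 carried most of the pro-survival sum, with 73.3% and 79.7% of it in Scribble null, 69.1% and 70.8% in Yap1 Taz null, 72.7% and 68.6% in triple null, and 66.2% and 67.9% in wild type. Without Mcl1 the pro-survival over effector ratio was 1.04 and 0.615 in Scribble null, 0.700 and 0.652 in Yap1 Taz null, 0.458 and 0.598 in triple null, and 0.475 and 0.601 in wild type. The Scribble null pair then spanned the Yap1 Taz null pair, and Scribble null replicate 2 was close to the higher wild-type library. Mcl1 over Bak1, a protein pair known to bind each other, was 4.35 and 3.52 in Scribble null, 2.22 and 2.17 in Yap1 Taz null, 1.61 and 1.68 in triple null, and 1.27 and 1.86 in wild type. A further table of the whole series that the authors deposited gave Mcl1 over Bak1 ratios of 4.06 and 3.03 in Scribble null, 2.15 and 2.09 in Yap1 Taz null, 1.42 and 1.56 in triple null, and 1.20 and 1.60 in wild type. By their means the genotypes had the same order in both tables. Bak1 over Bax was 1.95 and 2.16 in Scribble null, 2.39 and 2.66 in Yap1 Taz null, 3.13 and 3.48 in triple null, and 2.74 and 2.15 in wild type, so the balance between the effectors was highest in triple null.

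**Figure D3:**
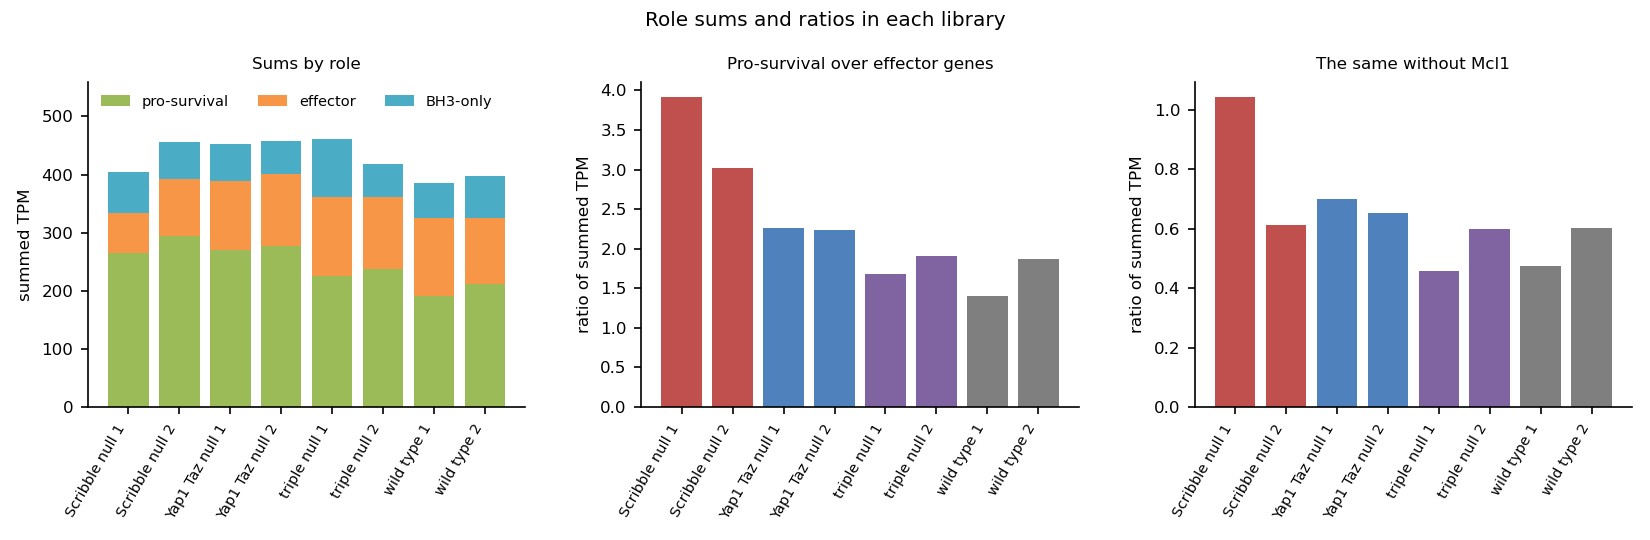
Left, summed TPM of the pro-survival, effector and BH3-only members in each library (stacked bars). Middle and right, the ratio of the pro-survival to the effector sum with and without Mcl1 (bars, from 0), coloured by genotype. The Scribble null libraries stand at 3.92 and 3.02 with Mcl1, above all others, and at 1.04 and 0.615 without it, where replicate 2 is close to the higher wild-type library.

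Across the 8 libraries, some members varied together. As a description over libraries that share genotypes, Pearson's r of log2(TPM + 1) was 0.761 for Mcl1 and Bbc3, 0.760 for Mcl1 and Bcl2l2, 0.713 for Bcl2l2 and Bbc3, and −0.776 for Bak1 and Bbc3. These were the highest values and the lowest one among all pairs of members. The pro-survival Mcl1 and Bcl2l2 and the pro-death Bbc3 were above wild type in the Scribble null and Yap1 Taz null libraries. In triple null, Mcl1 and Bcl2l2 were also above wild type, while Bbc3 lay within the wild-type range. Among 16063 other genes, those most like Mcl1 were Prr36 (r = 0.991), Dnajb2 (r = 0.977), a co-chaperone gene, and Olfr279 (r = 0.976), an olfactory receptor gene. Dnajb2 was 31.9 ± 3.603 TPM in Scribble null, 29.2 ± 0.349 TPM in Yap1 Taz null, 21.2 ± 0.525 TPM in triple null and 14.5 ± 1.51 TPM in wild type (SD, n = 2 each). It had the same order of genotypes as Mcl1, but was picked by its r over the same 8 libraries, so this order is no separate result. Prr36 was at most 2.73 TPM. The genes most like Bcl2 were Ppm1g (r = 0.955), a protein phosphatase gene, Fbxo2 (r = 0.9503), an F-box gene at 1.47 TPM or less, and Cd69 (r = 0.9496), a leukocyte activation marker.

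The wider death pathway was read from 6 lists with 87 genes, of which 77 were tested. Pim2, a survival kinase that phosphorylates BAD, rose in Scribble null against wild type, and was the 1 gene of the 77 to pass there, beside 1.3% of all genes, so the count over the lists is at the background. None of the 77 passed in the other comparisons between genotypes, beside 0.181% to 0.99% of all genes. Pim2 was 39.5 and 45.7 TPM in Scribble null, 25.6 and 30.3 TPM in Yap1 Taz null, 21.7 and 22.0 TPM in triple null, and 15.9 and 17.9 TPM in wild type. Every null library lay above both wild-type libraries, and the genotypes had the same order as for Mcl1. In a single null genotype, 30.9% to 33.2% of all genes lay above wild type without overlap. Its difference between Scribble null and wild type was 1.28 ± 0.189 (adjusted p = 0.0241). The call was lost (adjusted p 0.0680 to 0.188) when either library of wild type, Scribble null or triple null was left out, and with only the Scribble null and wild-type libraries in the fit (adjusted p = 0.166). Pim1, a related kinase, was 174.1 ± 21.1 TPM in Scribble null and 116.3 ± 8.55 TPM in wild type, a difference of 0.57 ± 0.139 (adjusted p = 0.0988). Bag1, a co-chaperone that binds BCL2, was 75.4 and 73.9 TPM in Scribble null and 111.6 and 111.5 TPM in wild type, a difference of −0.57 ± 0.131 (adjusted p = 0.0895). It passed after median-ratio scaling, at −0.75 (adjusted p = 0.0474). Hsp90aa1, a chaperone gene, differed by 0.41 (adjusted p = 0.131). The list of regulators, 21 genes tested, had a median difference of 0.133 in Scribble null beside 0.145 over all genes.

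Among the other Bcl2 family genes, 9 of 15 were tested and none passed, beside 1.3%, 0.99% and 0.579% of all genes in Scribble null, Yap1 Taz null and triple null against wild type. Bmf, a BH3-only gene, was 2.25 and 2.45 TPM in Scribble null, 3.598 and 3.24 TPM in Yap1 Taz null, 0.745 and 2.00 TPM in triple null, and 0.204 and 0.778 TPM in wild type. The Scribble null and Yap1 Taz null libraries were all above wild type, beside 33.2% of all genes in Scribble null and 32% in Yap1 Taz null. The Bmf difference was 1.59 ± 0.386 in Yap1 Taz null (adjusted p = 0.136). Bnip3l, whose protein is a mitophagy receptor, was 206.9 ± 12.6 TPM in triple null and 124.1 ± 24.1 TPM in wild type, a difference of 0.74 ± 0.164 (adjusted p = 0.138), while Scribble null was at 127.1 ± 0.311 TPM. Bcl2l15 differed by −0.81 in triple null (adjusted p = 0.491). Bcl2a1a was listed at 0 in every library, and Bcl2a1b, Bcl2l10, Bik and Hrk reached at most 0.415, 0.307, 0.256 and 0.110 TPM. Bcl2a1d reached 2.21 TPM, but not 1 TPM in a second library. Median differences of this list were 0.0469 in Scribble null, 0.0566 in Yap1 Taz null and 0.0461 in triple null, below those of all genes given above.

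In the p53 list, 15 of 16 genes were tested and none passed between genotypes, beside the same shares of all genes. Btg2, an anti-proliferative p53 target, was 156.1 and 169.6 TPM in Scribble null, 207.3 and 190.2 TPM in Yap1 Taz null, 102.9 and 80.7 TPM in triple null, and 118.9 and 142.1 TPM in wild type. It was above wild type in the Scribble null and Yap1 Taz null libraries and below it in the triple null ones. Its departure from additivity passed the test, at −1.44 ± 0.228 (adjusted p = 0.0403), as did that of Pim2, at −1.62 ± 0.268 (adjusted p = 0.0487). These were 2 of the 77 genes tested, both below 0, where 0.261% of all genes were called below 0. Both calls were lost when any of the 8 libraries was left out, with adjusted p between 0.0696 and 0.170 for Btg2 and between 0.0918 and 0.197 for Pim2. Plk2, a polo-like kinase gene, was 30.8 ± 0.881 TPM in Scribble null and 17.4 ± 1.22 TPM in wild type, a difference of 0.79 ± 0.190 (adjusted p = 0.0973). Mdm4, a p53 inhibitor, differed by 0.44 in Scribble null (adjusted p = 0.210). Cdkn1a, the cell cycle inhibitor p21, differed by −0.52 in triple null (adjusted p = 0.368), 0.36 in Yap1 Taz null (adjusted p = 0.428) and 0.14 in Scribble null (adjusted p = 0.740). Like Btg2, it did not overlap wild type in any of them. In a single null genotype, 30.9% to 33.2% of all genes lay above wild type without overlap, and 14.2% to 15.7% below it. Trp53 itself was 214.8 and 218.8 TPM in Scribble null, 255.1 and 235.6 TPM in Yap1 Taz null, 265.7 and 239.1 TPM in triple null, and 263.1 and 237.0 TPM in wild type.

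Downstream of mitochondria, no gene of the apoptosome and caspase list (13 tested), the inhibitor of apoptosis list (8 of 9 tested) or the death receptor list (11 of 12 tested) passed, again beside at most 1.3% of all genes. Birc5, an inhibitor of apoptosis family gene that also acts in mitosis, was 17.4 and 32.3 TPM in Scribble null, 51.3 and 33.3 TPM in Yap1 Taz null, 29.0 and 43.8 TPM in triple null, and 69.9 and 59.02 TPM in wild type. All null libraries were below both wild-type libraries, and the Scribble null difference was −1.40 ± 0.340 (adjusted p = 0.0992). In a single null genotype, 14.2% to 15.7% of all genes lay below wild type without overlap. Birc2 and Birc3, which encode the ubiquitin ligases cIAP1 and cIAP2, differed by 0.55 (adjusted p = 0.376) and −0.48 (adjusted p = 0.314) in triple null. Birc3 was higher than wild type in Yap1 Taz null, by 0.46 (adjusted p = 0.245). Dffa, which encodes the inhibitor of a caspase-activated DNase, was 128.8 and 79.4 TPM in Scribble null and 45.3 and 67.4 TPM in wild type, a difference of 0.86 ± 0.285 (adjusted p = 0.177). Casp9, the initiator caspase of the apoptosome, differed by 0.61 in triple null (adjusted p = 0.516), and Aifm1, a mitochondrial flavoprotein gene, by −0.39 in Scribble null (adjusted p = 0.387). Tnfrsf10b, the TRAIL receptor gene, was 26.8 and 30.5 TPM in Yap1 Taz null and 14.7 and 18.6 TPM in wild type, a difference of 0.76 ± 0.216 (adjusted p = 0.187). Cflar, an inhibitor of caspase-8, differed by 0.51 (adjusted p = 0.299) and Mlkl, the effector of necroptosis, by −0.56 (adjusted p = 0.367) in Scribble null. Medians of these lists in Scribble null were 0.179, −0.0546 and 0.159, beside 0.145 over all genes.

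**Figure D4:**
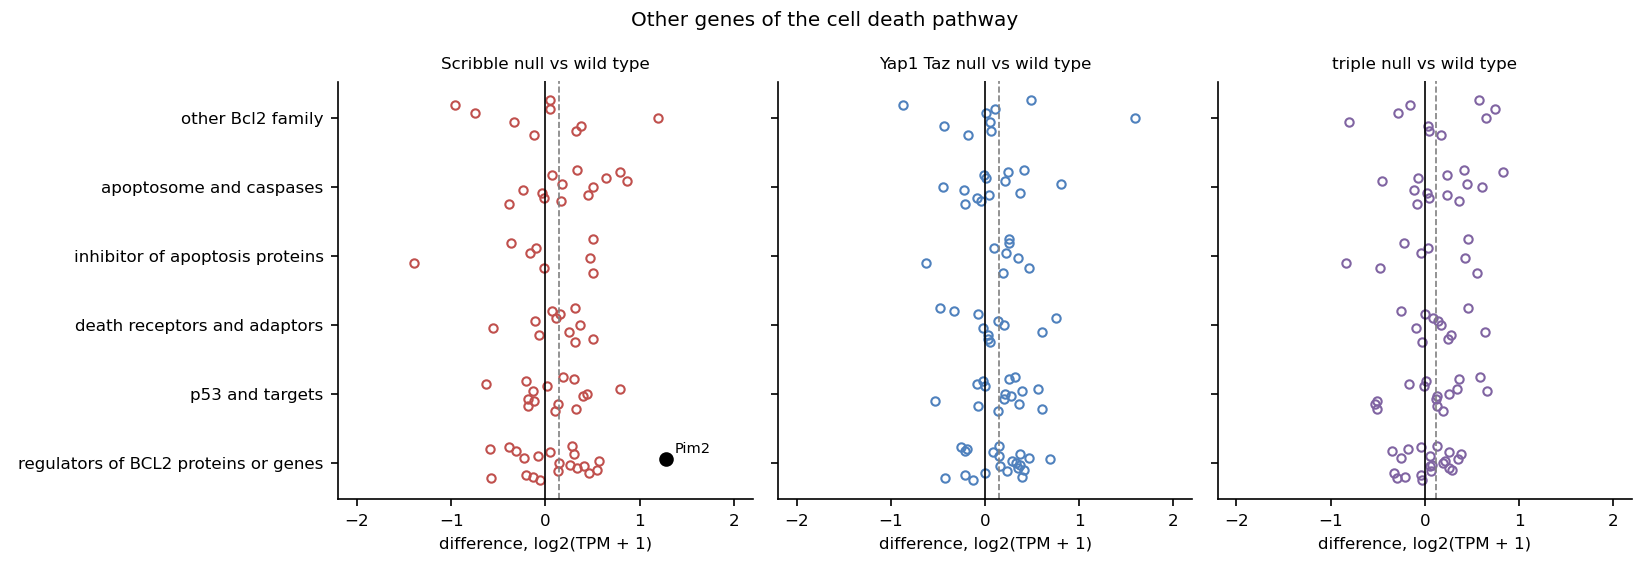
Difference from wild type on the log2(TPM + 1) scale (horizontal axes) of each tested gene of the 6 lists (open circles, 1 row a list) in the 3 null genotypes, with the median over all genes as a dashed line and genes that passed the test filled. Pim2, at 1.28 in Scribble null, is the filled point, and most others lie within 1 of 0.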

How the data were processed

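Per the labels' protocols, RNA of sorted stem cells was purified with an RNeasy kit and amplified with the Ovation RNA-Seq System v2 before Nextera XT library construction. The authors deposited a table of TPM for each of the 8 libraries, per the file headers, with 33641 symbols and a sum of 1000000 each. TopHat and the build mm10 come from the submitters' processing notes. How values were quantified, and how strand and shared reads were handled, is not given in the sources used here. Each library's TPM is scaled to a fixed total and keeps no depth. A further deposited table of linear values, in a unit its header does not name, holds 28987 identifiers, of which 27454 had 1 symbol, and served as an alternative.

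Log2(TPM + 1) values were fitted with limma 3.58.1 in R 4.3.3, with a mean-variance trend and 1 mean for each of the 4 groups (4 residual and 4 prior degrees of freedom). The 16064 genes that reached 1 TPM in 2 or more libraries entered the fit. Benjamini-Hochberg adjustment ran over all of them in each of 7 comparisons, and genes under 0.05 were called. Alternatives were a pseudocount of 0.1, no filter, median-ratio scaling, the other deposited table, a replicate block, only the groups compared, and each library left out. Members' transcripts were compared with all others by BLAST 2.17.0 at 90% identity or more, and coordinates are from GENCODE M21 on mm10. All 10 members and the targeted genes are named, with every listed gene called and up to 3 further genes a list with the smallest p against wild type. Bok, Pmaip1 and other listed genes are counted only. Trp53, and the untested genes given with their levels, were added after their values were seen. The members and lists were chosen with earlier results of these data known. The result of 1 marker list is not reported here.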

Additional observations from a re-analysis of the deposited data

Results flagged for a closer look

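The effect of Scribble loss on Btg2 differed between cells with and without Yap1 and Taz by the test of the interaction, at −1.44 on the log2 scale (adjusted p = 0.0403). In cells lacking Yap1 and Taz the Scribble loss difference was −1.11 (triple null against Yap1 Taz null, adjusted p = 0.0530), and in cells with both it was 0.32 (Scribble null against wild type, adjusted p = 0.338). The effect on Pim2 differed likewise, at −1.62 (adjusted p = 0.0487), with −0.34 in cells lacking Yap1 and Taz (adjusted p = 0.718) and 1.28 in cells with both (adjusted p = 0.0241). Both interaction calls were lost with no filter on low values, with median-ratio scaling and with the replicate block. Neither gene is one of the 10 members, and for no member did the interaction pass. These tests include the Yap1 Taz null libraries, where the Y-linked genes were low, so sex and genotype cannot be told apart in them. Groups of 2 libraries are too small for a check of single libraries against their group.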

How the results depend on the processing

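No member was called in any comparison under any alternative run, and of 1000 member differences under alternatives 44 changed sign, 36 of 560 with a library left out and 8 of 440 otherwise. Counts of genes called moved more. In the order Scribble null, Yap1 Taz null and triple null against wild type, triple null against Scribble null and against Yap1 Taz null, Scribble null against Yap1 Taz null, and departure, they were 209, 159, 93, 34, 29, 46 and 102. With only the groups compared in the fit, the first 6 were 50, 56, 58, 11, 6 and 12. The table of the whole series gave 101, 105, 63, 20, 15, 33 and 68, and no filter on low values gave 157, 136, 108, 82, 73, 96 and 167. A replicate block gave 110, 112, 67, 35, 14, 35 and 75. The labels number the libraries of every genotype Exp#1 and Exp#2 and do not say whether a number marks a shared experiment, so the pairing could not be settled from them, and deviations of same-numbered libraries correlated at −0.0531 to 0.0257. Leaving out each library in turn gave 47 to 221, 53 to 134, 39 to 85, 19 to 61, 9 to 21, 23 to 59 and 44 to 128. Without both Yap1 Taz null libraries, an alternative chosen after seeing the data, 111 genes were called in Scribble null. The cause of these shifts was not tested.

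Of the Btg2 and Pim2 departures, calls were lost with no filter (adjusted p 0.147 and 0.0546), with median-ratio scaling (0.0690 and 0.0595) and with the block (0.0840 and 0.0720), that of Pim2 also with a pseudocount of 0.1 (0.0505) and that of Btg2 in the table of the whole series (0.0614). Without Mcl1 the mean pro-survival over pro-death ratio was 0.440 in Scribble null, 0.452 in Yap1 Taz null, 0.337 in triple null and 0.348 in wild type. Depth is unknown, so its limit on low genes such as Bbc3 cannot be given.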
